A study of Arabidopsis thaliana with 12 samples.

Results

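Gene expression after loss of 5 JASMONATE ZIM-DOMAIN (JAZ) repressors was measured in Arabidopsis seedlings that lacked the transcription factors MYC2, MYC3 and MYC4, by comparing jazQ mycT with mycT across all genes. Of the 33602 genes in the count table, 20717 had enough reads in these 6 of the series' 12 libraries to be tested. Both genotypes were in the Col-0 ecotype and shared the mycT insertions jin1-7/myc2-1 (SALK_040500), myc3-1 (GK-445B11) and myc4-1 (GK-491E10), and jazQ mycT also carried insertions in JAZ1, JAZ3, JAZ4, JAZ9 and JAZ10. The lines were recovered from the segregating progeny of crosses, and neither label names a further line of either genotype. Each sample was a pool of about 200 whole seedlings, roots included, grown for 8 d at 21 °C in continuous light on solid medium with 0.8% sucrose and no added jasmonate. The labels call the 3 samples of a genotype independent biological replicates. The p-values set the difference between genotypes against the spread between these pools, and cannot tell loss of the JAZ genes from other differences between the lines.

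Jasmonate is a plant hormone of defence and wounding. Its active form, jasmonoyl-isoleucine, joins JAZ proteins to the F-box receptor COI1, which leads to their destruction and frees the transcription factors that JAZ proteins hold inactive. MYC2, MYC3 and MYC4 are the best-known of these factors: they bind the G-box, CACGTG, and in Arabidopsis they are known as activators of glucosinolate synthesis, of jasmonate synthesis and of wound genes. JAZ proteins also bind transcription factors outside the MYC group, and a comparison within the mycT background shows which transcripts differ with the JAZ genes when those MYC proteins are missing.

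Levels are given in TPM, a share of all transcripts scaled to gene length so that genes can be compared, and differences as log2 fold changes of jazQ mycT over mycT, from edgeR's quasi-likelihood test on the read counts with Benjamini-Hochberg adjustment over all tested genes. A gene is said to have risen or fallen at an adjusted p under 0.05. The mutated JAZ genes were read first, as a check on the labels. JAZ10 stood at 3.58, 4.68 and 5.21 TPM in mycT and 345, 347 and 319.97 TPM in jazQ mycT, so its RNA rose by 6.33 ± 0.14 (SE), adjusted p = 9.16e-07. JAZ3 also rose, with 8.76, 12.8 and 14 TPM in mycT and 203, 267 and 267 TPM in jazQ mycT (4.27 ± 0.14 (SE), adjusted p = 4.07e-06). In both genes every jazQ mycT library lay more than 10-fold above every mycT library, although these are the genes that carry insertions. JAZ1 fell, with 32.3, 34 and 46.5 TPM in mycT and 4.25, 5.03 and 5.34 TPM in jazQ mycT (-2.93 ± 0.15 (SE), adjusted p = 5.83e-05), and JAZ4 fell from 5.71, 5.11 and 5.74 TPM in mycT and 1.78, 2.21 and 2.55 TPM in jazQ mycT (-1.34 ± 0.15 (SE), adjusted p = 0.00246). JAZ9 was only slightly higher, with 53.4, 62.1 and 67.3 TPM in mycT and 70.3, 78.7 and 80.1 TPM in jazQ mycT (0.31 ± 0.074 (SE), adjusted p = 0.0407), a call that was lost without mycT replicate 1 or 2 or jazQ mycT replicate 1, 2 or 3 (adjusted p = 0.0919 to 0.129). Reads were counted over whole gene models, so these values do not tell RNA on the 2 sides of an insertion apart and do not show whether a working transcript was made.

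The mutated MYC genes still gave reads in every library, and both genotypes carry the same insertions in them. MYC2 was at 13.2, 18.6 and 18.4 TPM in mycT and 22.1, 23.9 and 22.6 TPM in jazQ mycT (0.47 ± 0.11 (SE), adjusted p = 0.0443), and its call was lost without mycT replicate 1 or 2 or jazQ mycT replicate 1, 2 or 3 (adjusted p = 0.0545 to 0.137). MYC3 had a log2 fold change of 0.33 ± 0.11 (SE), adjusted p = 0.106, and MYC4 one of 0.29 ± 0.096 (SE), adjusted p = 0.114. Neither MYC3 nor MYC4 passed the test.

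Libraries held between 12336090 and 22936849 counts, and the shallowest was mycT replicate 3. The replicate 1 libraries of both genotypes stood apart: nuclear ribosomal RNA took 2.56% of counts in mycT and 6.02% in jazQ mycT, against 0.403% to 0.69% in the other libraries, and genes of the chloroplast and mitochondrial genomes took 2.77% and 5.32%, against 0.375% to 0.572%. The part of this in the results was not tested, and counts of list members are therefore also given without both replicate 1 libraries. Roots and shoots were both present. The 16 tested root markers summed to 111, 113 and 119 TPM in mycT and 91.9, 108 and 109 TPM in jazQ mycT, and the 16 shoot markers to between 21780 and 25850 TPM and between 18600 and 24900 TPM. The root sums did not overlap and were lower in jazQ mycT. In whole seedlings, fewer cells of a type and less RNA per cell cannot be told apart.

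Transcripts differed between jazQ mycT and mycT in both directions. Of the 20717 genes tested, 823 (3.97%) were higher in jazQ mycT and 732 (3.53%) were lower, together 7.51%. The median log2 fold change was 0.52 among the genes that rose and -0.48 among those that fell, beside 0.0019 over all tested genes. A change of at least 1 on the log2 scale was found for 148 of the genes that rose and 71 of those that fell. The TPM values of the 3 libraries of one genotype lay entirely above or below those of the other for 4016 genes (19.4%).

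The counts depended on single libraries. Without mycT replicate 1, 2 or 3 there were 515, 425 and 983 genes higher and 390, 320 and 742 lower, and without jazQ mycT replicate 1, 2 or 3 there were 539, 316 and 351 higher and 438, 183 and 177 lower. The calls that passed in all 6 of these fits numbered 291 genes higher and 126 lower. With both replicate 1 libraries left out, 511 genes were higher and 511 lower. Counts of list members without both replicate 1 libraries are to be read beside these numbers.

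The promoters of genes with the largest changes are shown here so that the sequence can be read beside the values that follow. Each runs from 250 bases before to 50 bases after the annotated start, 5′ to 3′ on the strand of the gene, in the genome assembly TAIR10.1, and capitals mark a G-box, CACGTG, which reads the same on both strands. Among called genes whose libraries did not overlap and whose mean reached 5 TPM in either genotype, JAZ10 (chr5:4218536-4218835, + strand) had the largest fitted rise and AT4G22510 (chr4:11857368-11857667, - strand) the largest fitted fall. MRN1 (chr5:17053203-17053502, + strand) and CYP705A12 (chr5:17025312-17025611, - strand) had the largest rises of the triterpenoid genes. CYP79F1 (chr1:5608432-5608731, + strand), CYP83A1 (chr4:7992380-7992679, - strand) and BAT5 (chr4:7210557-7210856, + strand), which serve aliphatic glucosinolate synthesis, were added after their values were seen.
JAZ10: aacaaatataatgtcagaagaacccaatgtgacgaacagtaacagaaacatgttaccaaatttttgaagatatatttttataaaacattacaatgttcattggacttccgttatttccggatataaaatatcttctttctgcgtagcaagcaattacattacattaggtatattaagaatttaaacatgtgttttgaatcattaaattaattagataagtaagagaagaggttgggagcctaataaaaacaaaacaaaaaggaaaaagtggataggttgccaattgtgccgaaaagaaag
MRN1: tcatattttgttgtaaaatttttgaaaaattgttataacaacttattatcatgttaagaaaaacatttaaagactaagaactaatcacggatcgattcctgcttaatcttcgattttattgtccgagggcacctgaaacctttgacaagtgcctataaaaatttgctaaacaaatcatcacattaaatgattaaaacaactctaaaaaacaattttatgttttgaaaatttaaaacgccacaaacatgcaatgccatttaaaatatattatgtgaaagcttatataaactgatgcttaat
CYP705A12: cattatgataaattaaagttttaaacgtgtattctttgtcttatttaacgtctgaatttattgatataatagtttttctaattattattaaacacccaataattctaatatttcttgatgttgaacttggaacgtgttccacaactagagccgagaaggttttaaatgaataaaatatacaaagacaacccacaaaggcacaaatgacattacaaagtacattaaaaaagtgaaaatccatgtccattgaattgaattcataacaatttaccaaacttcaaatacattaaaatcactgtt
CYP79F1: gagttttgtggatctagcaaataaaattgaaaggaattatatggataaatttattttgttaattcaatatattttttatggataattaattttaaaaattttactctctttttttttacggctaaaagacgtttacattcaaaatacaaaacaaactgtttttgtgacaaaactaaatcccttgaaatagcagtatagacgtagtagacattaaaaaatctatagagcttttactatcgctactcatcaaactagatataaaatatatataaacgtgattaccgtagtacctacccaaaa
CYP83A1: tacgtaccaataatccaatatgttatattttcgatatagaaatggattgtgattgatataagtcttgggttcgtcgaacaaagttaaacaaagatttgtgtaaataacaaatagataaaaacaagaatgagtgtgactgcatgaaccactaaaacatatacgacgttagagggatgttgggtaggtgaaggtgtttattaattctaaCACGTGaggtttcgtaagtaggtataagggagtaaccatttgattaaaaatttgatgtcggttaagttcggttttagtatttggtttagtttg
BAT5: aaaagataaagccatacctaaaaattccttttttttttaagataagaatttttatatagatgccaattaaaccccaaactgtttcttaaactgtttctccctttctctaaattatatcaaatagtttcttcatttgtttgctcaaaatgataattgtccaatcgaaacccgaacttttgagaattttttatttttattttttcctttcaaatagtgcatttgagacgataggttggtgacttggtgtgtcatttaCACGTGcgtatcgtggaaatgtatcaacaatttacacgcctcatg
AT4G22510: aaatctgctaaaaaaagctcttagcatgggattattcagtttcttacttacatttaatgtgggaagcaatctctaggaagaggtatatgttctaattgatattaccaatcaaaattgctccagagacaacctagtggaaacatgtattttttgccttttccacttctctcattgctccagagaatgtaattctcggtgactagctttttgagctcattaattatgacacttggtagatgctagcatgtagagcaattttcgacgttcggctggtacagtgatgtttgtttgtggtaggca
The windows of CYP83A1 and BAT5 each held 1 G-box, and these genes were chosen because they rose and held it. MRN1 and CYP79F1 were likewise chosen for their rises, so these windows cannot show whether the letters go with a rise. A match is a description and not evidence of binding.

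Over all genes tested, 1784 of 20525 promoters of this length (8.69%) held CACGTG on either strand. The share was 11.7% (96 of 821, 95% Wilson interval 9.67 to 14.1%) among genes that rose and 9.85% (72 of 731) among genes that fell. GCCGCC, the GCC-box bound by ethylene response factors, was found in 2.65% of all promoters, 3.29% of those of genes that rose and 1.37% of those of genes that fell. With the genes of the first 1.4 Mb of chromosome 2 left out, the GCC-box share among genes that rose was 2.38%, below that of all promoters, and the G-box share was 12.4%. TTGACC, which contains the TTGAC core of the W-box bound by WRKY factors, was found in 14.4%, 14.2% and 11.6%. Both were searched on both strands and overlap neither each other nor the G-box. Among the 18 tested aliphatic glucosinolate genes, 4 held CACGTG (IIL1, BAT5, CYP83A1 and FMOGS-OX3), as did 1 of the 9 tested triterpenoid genes. With only the 250 bases before the start, CACGTG was found in 7.3% of all promoters and 9.5% of those of genes that rose, in 2 of the 18 aliphatic glucosinolate genes and in none of the 9 triterpenoid genes.

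The largest changes in a named pathway were in aliphatic glucosinolate synthesis, which builds sulphur-rich defence compounds from methionine. Of 18 tested genes 15 rose and none fell, beside 3.97% of all genes higher, and all 18 had a positive log2 fold change. The median was 1.91, beside 0.0019 over all genes. Without both replicate 1 libraries 12 of the 18 were called, all higher, and the calls of 12 genes held in each of the 6 fits that leave out 1 library.

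Methionine is first lengthened, carbon by carbon. BCAT4, the aminotransferase that opens this cycle, had 1.81, 2.16 and 2.43 TPM in mycT and 42.8, 36.4 and 34.3 TPM in jazQ mycT (4.21 ± 0.18 (SE), adjusted p = 2.10e-05). MAM3, a methylthioalkylmalate synthase, had 0.23, 0.31 and 0.18 TPM in mycT and 7.59, 5.22 and 6.75 TPM in jazQ mycT (4.71 ± 0.28 (SE), adjusted p = 0.000121). MAM1, a synthase of the same family at a neighbouring locus, had 6.84, 8.84 and 8.56 TPM in mycT and 57.4, 55.9 and 52.5 TPM in jazQ mycT (2.8 ± 0.11 (SE), adjusted p = 1.53e-05). In all of these the lowest jazQ mycT library was at least 5 times the highest mycT library. IMD1, the isopropylmalate dehydrogenase of the cycle, rose by 2.04 ± 0.13 (SE), adjusted p = 0.00015. IPMI2, a small subunit of the isomerase, rose by 2.38 ± 0.25 (SE), adjusted p = 0.00151, from a mean of 0.733 ± 0.27 TPM (SD, n = 3) to 3.9 ± 0.47 TPM. BAT5, a plastid transporter of the pathway's keto acids, rose by 1.79 ± 0.22 (SE), adjusted p = 0.0031. IIL1, the large subunit of the isomerase, which leucine synthesis also uses, rose by only 0.32 ± 0.055 (SE), adjusted p = 0.014, and this call was lost without jazQ mycT replicate 2 (adjusted p = 0.0692). BCAT3, an aminotransferase that likewise serves amino acid synthesis, did not pass the test (0.18 ± 0.075 (SE), adjusted p = 0.198).

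The lengthened amino acids are then turned into the glucosinolate core. CYP79F1, the P450 that makes the aldoxime, had the largest rise of any gene outside the mutated JAZ loci among the genes named, with 0.55, 0.49 and 0.51 TPM in mycT and 14.1, 13.3 and 10.8 TPM in jazQ mycT (4.87 ± 0.22 (SE), adjusted p = 2.11e-05). Its neighbour CYP79F2 rose by 2.11 ± 0.13 (SE), adjusted p = 0.000125, and CYP83A1, the next P450, was at 7.02, 9.13 and 7.55 TPM in mycT and 56.6, 61.7 and 59.9 TPM in jazQ mycT (2.92 ± 0.084 (SE), adjusted p = 2.71e-06). The CYP79F1 and CYP83A1 libraries of the 2 genotypes were far apart, with a fold of 29.3 and 7.58. GSTU20, a glutathione transferase, rose by 1.08 ± 0.080 (SE), adjusted p = 0.000328, while GSTF11 did not pass (1.28 ± 0.38 (SE), adjusted p = 0.0821). Of the sulphotransferases that finish the core, SOT18 rose by 0.77 ± 0.097 (SE), adjusted p = 0.00368 and SOT17 by 1.08 ± 0.21 (SE), adjusted p = 0.0233, the latter call being lost without mycT replicate 1 or 2 or jazQ mycT replicate 2 or 3 (adjusted p = 0.0525 to 0.0854). The side-chain oxygenases FMOGS-OX1 and FMOGS-OX3 rose by 2.34 ± 0.31 (SE), adjusted p = 0.00467, and by 1.56 ± 0.30 (SE), adjusted p = 0.0221, and the call on FMOGS-OX3 was lost without mycT replicate 1 or jazQ mycT replicate 2 (adjusted p = 0.0583 to 0.0633). The glucosyltransferase gene AT2G31790 did not pass (0.16 ± 0.058 (SE), adjusted p = 0.129). IPMI1, another small subunit, had at most 8 counts in any library and was not tested. The plot of aliphatic glucosinolate genes shows how far apart the genotypes lay in each tested gene of the pathway. Similar neighbours such as CYP79F1 and CYP79F2 or MAM1 and MAM3 can share reads, and RSEM assigns those by estimate, so the split between them is uncertain.

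**Figure D1:**
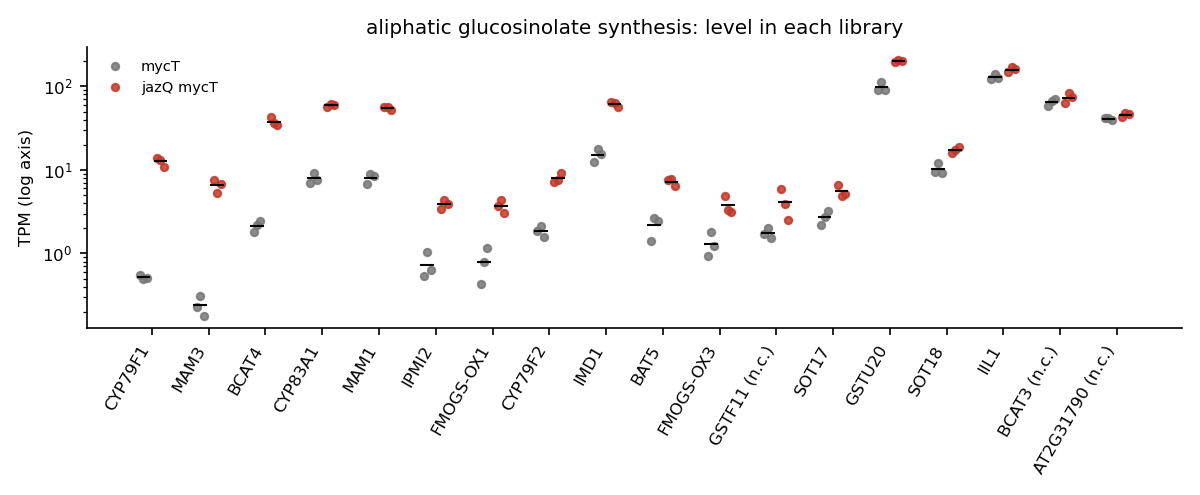
TPM (log scale) of aliphatic glucosinolate genes in each library of mycT and jazQ mycT; each point is 1 library, bars mark the mean of 3, and n.c. marks genes not called. CYP79F1 lies at 0.49 to 0.55 TPM in mycT and 10.8 to 14.1 TPM in jazQ mycT, and the points of the genotypes do not overlap in the genes that rose.

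AK3, an aspartate kinase at the head of the route to methionine and threonine, was outside the fixed lists and rose, with 0.35, 0.62 and 0.82 TPM in mycT and 9.73, 8.71 and 7.52 TPM in jazQ mycT (3.95 ± 0.26 (SE), adjusted p = 0.00015). Among the regulators of glucosinolates, MYB28, a main activator of the aliphatic genes, did not pass and its mycT libraries were the higher ones, with 47.6, 63.1 and 44.7 TPM in mycT and 38, 44.3 and 41.1 TPM in jazQ mycT (-0.34 ± 0.10 (SE), adjusted p = 0.0871). MYB29, its close relative, had 1.47, 2.78 and 1.61 TPM in mycT and 4.61, 4.52 and 4.35 TPM in jazQ mycT (1.21 ± 0.22 (SE), adjusted p = 0.0184), and its call was lost without jazQ mycT replicate 1, 2 or 3 (adjusted p = 0.0513 to 0.0681). MYB34, MYB51 and MYB122, which act on the indole branch, did not pass. In MYB51 the libraries spread from 22.2 to 69.3 TPM within mycT alone. MYB76 had at most 11 counts in any library and was not tested. Of the 5 tested MYB genes 1 rose and none fell, beside 3.97% of all genes higher, and none was called without both replicate 1 libraries.

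Indole glucosinolates, made from tryptophan, changed less. Of 15 tested genes 6 rose and none fell, beside 3.97% of all genes higher. The median log2 fold change was 0.29, and 4 were called without both replicate 1 libraries. GGP1, the glutamyl peptidase that acts in both branches, had 108, 121 and 124 TPM in mycT and 216, 221 and 224 TPM in jazQ mycT (0.92 ± 0.065 (SE), adjusted p = 0.000216). CYP83B1, the P450 after the aldoxime, had 17, 19.7 and 19.5 TPM in mycT and 30.8, 32.3 and 29.7 TPM in jazQ mycT (0.74 ± 0.084 (SE), adjusted p = 0.00228). CYP79B3, which makes indole-3-acetaldoxime, had 5.19, 6.85 and 6.55 TPM in mycT and 13.4, 12.8 and 11.5 TPM in jazQ mycT (1.05 ± 0.13 (SE), adjusted p = 0.00358). The libraries of the genotypes did not overlap in any of these. CYP79B2 rose by 0.78 ± 0.14 (SE), adjusted p = 0.0178, but not without mycT replicate 1 or 2 or jazQ mycT replicate 2 (adjusted p = 0.0534 to 0.0748). The methyltransferase gene IGMT1 rose by 0.92 ± 0.15 (SE), adjusted p = 0.0119, but not without mycT replicate 2 or jazQ mycT replicate 2 (adjusted p = 0.0575 to 0.060). UGT74B1, the glucosyltransferase, rose by 0.53 ± 0.13 (SE), adjusted p = 0.0423, and lost its call without mycT replicate 1, 2 or 3 or jazQ mycT replicate 1, 2 or 3 (adjusted p = 0.0578 to 0.105). CYP81F2 had 5.71, 15.8 and 41.9 TPM in mycT and 46.4, 43.3 and 33.2 TPM in jazQ mycT and did not pass (log2 fold change 1.04 ± 0.56 (SE), adjusted p = 0.301), the mycT libraries alone spanning more than the distance between the genotypes.

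Triterpenoid synthesis was the list in which every tested member rose. Thalianol, marneral and arabidiol are root triterpenes made by enzymes whose genes lie side by side in the genome. All 9 tested genes rose, beside 3.97% of all genes higher, with a median log2 fold change of 1.52. They also rose in each of the 6 fits that leave out 1 library and without both replicate 1 libraries. MRN1, marneral synthase, had 0.59, 1 and 0.81 TPM in mycT and 10.4, 11.9 and 8.3 TPM in jazQ mycT (3.69 ± 0.21 (SE), adjusted p = 0.000104). CYP705A12, the adjacent P450, had 2.01, 3.38 and 2.99 TPM in mycT and 17.6, 22.4 and 17.7 TPM in jazQ mycT (2.81 ± 0.17 (SE), adjusted p = 0.000111). MRO, marneral oxidase, rose by 1.57 ± 0.15 (SE), adjusted p = 0.000851. In each of these 3 neighbours on chromosome 5 the genotypes were separated by more than a factor of 2 between the nearest libraries.

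The thalianol genes were expressed at higher levels and rose by a narrow range. THAS, thalianol synthase, had 27.3, 40.5 and 31.7 TPM in mycT and 83.1, 101 and 97.8 TPM in jazQ mycT (1.52 ± 0.11 (SE), adjusted p = 0.000215). THAH, thalianol hydroxylase, had 33.8, 52.1 and 42.9 TPM in mycT and 122, 151 and 137 TPM in jazQ mycT (1.68 ± 0.12 (SE), adjusted p = 0.000215). THAD, the desaturase, had 36, 50.8 and 42.9 TPM in mycT and 110.4, 137 and 121 TPM in jazQ mycT (1.52 ± 0.099 (SE), adjusted p = 0.000151). All jazQ mycT libraries were above all mycT libraries in these genes, and the order of the libraries was alike: replicate 1 was the lowest and replicate 2 the highest of each genotype. The acyltransferase gene ACT rose by 1.47 ± 0.12 (SE), adjusted p = 0.000455. PEN1, arabidiol synthase, rose by 0.87 ± 0.074 (SE), adjusted p = 0.000633, and CYP705A1, which cleaves arabidiol, by 0.99 ± 0.16 (SE), adjusted p = 0.00938. The synthase genes BARS1, PEN3 and PEN6 had at most 6 counts in any library and were not tested.

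**Figure D2:**
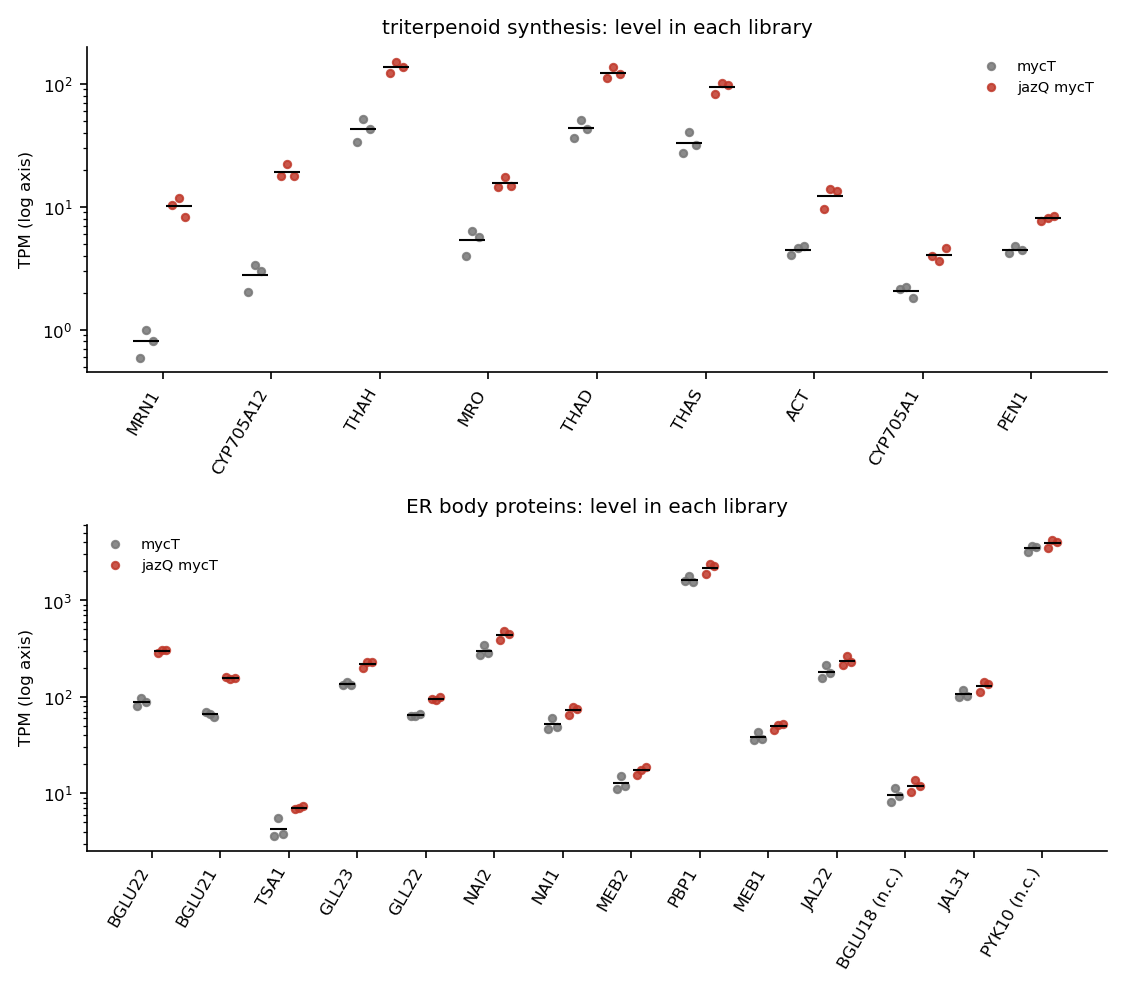
TPM (log scale) of triterpenoid genes and ER body genes in each library of mycT and jazQ mycT; each point is 1 library, bars mark the mean of 3, and n.c. marks genes not called. BGLU22 lies at 80.5 to 96.3 TPM in mycT and 286 to 309 TPM in jazQ mycT, and no triterpenoid gene has overlapping points.

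ER bodies are compartments of the endoplasmic reticulum in Brassicaceae that store beta-glucosidases. Of 14 tested ER body genes 12 rose and none fell, beside 3.97% of all genes higher. The median log2 fold change was 0.47, and 8 were called without both replicate 1 libraries. BGLU22, a beta-glucosidase, had 80.5, 96.3 and 89.1 TPM in mycT and 286, 303 and 309 TPM in jazQ mycT (1.77 ± 0.061 (SE), adjusted p = 6.10e-06). BGLU21, its neighbour, had 70.1, 66.3 and 61.3 TPM in mycT and 162, 155 and 158 TPM in jazQ mycT (1.28 ± 0.092 (SE), adjusted p = 0.000261). The 2 genes are similar and may share reads, but their genotypes did not overlap. GLL23, a lipase-like protein, had 133, 141 and 133 TPM in mycT and 201, 230.3 and 232 TPM in jazQ mycT (0.71 ± 0.045 (SE), adjusted p = 0.000148), and GLL22 rose by 0.59 ± 0.073 (SE), adjusted p = 0.00333. NAI2, which forms the compartment, had 271, 343 and 286 TPM in mycT and 388, 482 and 445 TPM in jazQ mycT (0.56 ± 0.079 (SE), adjusted p = 0.00619). MEB1, a membrane protein of ER bodies, rose by 0.38 ± 0.057 (SE), adjusted p = 0.0080. These 6 calls held without any 1 library.

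Other ER body calls were less firm. NAI1, the bHLH factor that ER body formation needs, rose by 0.49 ± 0.080 (SE), adjusted p = 0.0109, but not without jazQ mycT replicate 2 (adjusted p = 0.0595). PBP1, a lectin of the beta-glucosidase complex, rose by 0.41 ± 0.071 (SE), adjusted p = 0.0146, but not without jazQ mycT replicate 2 or 3 (adjusted p = 0.0631 to 0.066). TSA1, related to NAI2, rose by 0.73 ± 0.13 (SE), adjusted p = 0.0174, but not without jazQ mycT replicate 1, 2 or 3 (adjusted p = 0.0538 to 0.0638). JAL31, JAL22 and MEB2 also passed, and lost their calls without mycT replicate 1 or 3 or jazQ mycT replicate 2 or 3 (adjusted p = 0.0525 to 0.113) for JAL31, without mycT replicate 1 or 3 or jazQ mycT replicate 1, 2 or 3 (adjusted p = 0.0915 to 0.166) for JAL22 and without mycT replicate 1 or 3 or jazQ mycT replicate 1, 2 or 3 (adjusted p = 0.0667 to 0.119) for MEB2. PYK10, the main ER body beta-glucosidase and the most abundant transcript of the list, did not pass, with 3194, 3699 and 3565 TPM in mycT and 3509, 4254 and 4088 TPM in jazQ mycT (0.19 ± 0.066 (SE), adjusted p = 0.125), nor did BGLU18 (0.33 ± 0.11 (SE), adjusted p = 0.115).

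Glucosinolate hydrolysis begins when tissue is broken and myrosinases meet their substrates. Of 16 tested genes 6 rose and none fell, beside 3.97% of all genes higher. The median log2 fold change was 0.28, and 6 were also called without both replicate 1 libraries. TGG2, a myrosinase, had 112, 149 and 123 TPM in mycT and 188, 249.96 and 232 TPM in jazQ mycT (0.81 ± 0.090 (SE), adjusted p = 0.00215). TGG1, the more abundant myrosinase, had 932, 1051 and 1042 TPM in mycT and 914, 1182 and 1123 TPM in jazQ mycT and did not pass (0.097 ± 0.069 (SE), adjusted p = 0.436). The libraries overlapped in TGG1 and not in TGG2. NSP3, a nitrile specifier protein, rose by 0.70 ± 0.10 (SE), adjusted p = 0.00725, the lipase-like MVP1 by 0.35 ± 0.051 (SE), adjusted p = 0.00745 and the nitrilase NIT3 by 0.41 ± 0.061 (SE), adjusted p = 0.00803. NSP4 rose by 0.46 ± 0.095 (SE), adjusted p = 0.0276, but not without mycT replicate 2 or 3 or jazQ mycT replicate 1, 2 or 3 (adjusted p = 0.0549 to 0.0983). ESM1, which favours isothiocyanates over nitriles, rose by 0.39 ± 0.082 (SE), adjusted p = 0.0292, but not without mycT replicate 2 or jazQ mycT replicate 1, 2 or 3 (adjusted p = 0.063 to 0.0875). TGG4, TGG5 and NSP5 had log2 fold changes of 0.025, -0.11 and -0.0055, with overlapping libraries.

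Jasmonate synthesis genes were moderately higher. Of 13 tested genes 7 rose and none fell, beside 3.97% of all genes higher. The median log2 fold change was 0.38, and 5 were called without both replicate 1 libraries. LOX2, the plastid 13-lipoxygenase, had 25.3, 33.9 and 29.6 TPM in mycT and 67.5, 80.5 and 76.7 TPM in jazQ mycT (1.35 ± 0.078 (SE), adjusted p = 0.000104). AOS, allene oxide synthase, had 39.2, 54.4 and 45.9 TPM in mycT and 70, 78.8 and 69.1 TPM in jazQ mycT (0.66 ± 0.10 (SE), adjusted p = 0.00814). AOC2, an allene oxide cyclase, had 114, 130.1 and 124 TPM in mycT and 165, 165 and 179.8 TPM in jazQ mycT (0.49 ± 0.059 (SE), adjusted p = 0.00314). OPR3, the peroxisomal reductase, rose by 0.60 ± 0.091 (SE), adjusted p = 0.00822. These 4 calls held without any 1 library, and their libraries did not overlap. AOC1 rose by 0.53 ± 0.087 (SE), adjusted p = 0.0112, but not without jazQ mycT replicate 2 or 3 (adjusted p = 0.0504 to 0.0556). AOC4 rose by 0.36 ± 0.071 (SE), adjusted p = 0.0229, but not without mycT replicate 1 or 2 or jazQ mycT replicate 1, 2 or 3 (adjusted p = 0.0629 to 0.0722). LOX6, another 13-lipoxygenase, rose by 0.34 ± 0.082 (SE), adjusted p = 0.0432, with overlapping libraries, and lost its call without mycT replicate 1 or 3 or jazQ mycT replicate 1, 2 or 3 (adjusted p = 0.0673 to 0.151).

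Other enzymes of the pathway did not pass. LOX4 varied widely within each genotype, with 1.27, 9.04 and 25.4 TPM in mycT and 24.4, 12.2 and 5.7 TPM in jazQ mycT (0.38 ± 0.86 (SE), adjusted p = 0.832). LOX3 (0.34) and OPCL1 (0.30) likewise had overlapping libraries. JAR1, which joins jasmonate to isoleucine, had 33.5, 38.2 and 35.2 TPM in mycT and 30, 30.7 and 30.2 TPM in jazQ mycT (-0.21 ± 0.067 (SE), adjusted p = 0.0954), lower in all 3 jazQ mycT libraries but short of the threshold.

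Jasmonate catabolism and the intact JAZ genes gave only calls that 1 library could undo. Of 8 tested catabolism genes 3 rose and none fell, beside 3.97% of all genes higher. The median log2 fold change was 0.45, and 1 was called without both replicate 1 libraries. JRG21, a jasmonate oxygenase, had 0.83, 1.31 and 1.78 TPM in mycT and 2.52, 3.44 and 2.6 TPM in jazQ mycT (1.19 ± 0.26 (SE), adjusted p = 0.0341), and lost its call without mycT replicate 1 or 2 or jazQ mycT replicate 1, 2 or 3 (adjusted p = 0.0744 to 0.124). AT5G05600, an oxygenase gene of the same family, rose by 0.39 ± 0.069 (SE), adjusted p = 0.0155, but not without mycT replicate 2 or jazQ mycT replicate 2 (adjusted p = 0.063 to 0.0717). CYP94B1, which oxidises jasmonoyl-isoleucine, rose by 0.43 ± 0.091 (SE), adjusted p = 0.028, but not without mycT replicate 1 or 2 or jazQ mycT replicate 2 or 3 (adjusted p = 0.0576 to 0.108). CYP94B3, CYP94C1, ILL6, IAR3 and ST2A did not pass.

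Of the 6 tested intact JAZ genes 2 rose and none fell, beside 3.97% of all genes higher. The median log2 fold change was 0.22, and none was called without both replicate 1 libraries. JAZ2 had 22.8, 25.1 and 25.2 TPM in mycT and 30.2, 36 and 31.9 TPM in jazQ mycT (0.44 ± 0.072 (SE), adjusted p = 0.0119), and lost its call without mycT replicate 2 or jazQ mycT replicate 2 (adjusted p = 0.0509 to 0.0581). JAZ5 had 1.23, 1.17 and 1.05 TPM in mycT and 4.3, 3.32 and 2.14 TPM in jazQ mycT (1.52 ± 0.33 (SE), adjusted p = 0.032), and lost its call without mycT replicate 1, 2 or 3 or jazQ mycT replicate 1 or 2 (adjusted p = 0.0615 to 0.107). JAZ6 lay just outside the threshold (0.32 ± 0.082 (SE), adjusted p = 0.0522), with libraries that did not overlap. JAZ7 had a log2 fold change of -0.53 ± 0.39 (SE), adjusted p = 0.45, JAZ11 of -0.047 ± 0.098 (SE), adjusted p = 0.82 and JAZ12 of 0.11 ± 0.061 (SE), adjusted p = 0.302. JAZ8 had 1 to 5 counts a library and was not tested.

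The receptor and corepressors did not differ detectably: none of COI1, NINJA, TPL, TIFY8, PPD1 and PPD2 passed, and their log2 fold changes ran from -0.12 to 0.20. Among the bHLH factors related to MYC2 that act as repressors of jasmonate responses, 2 of 3 rose, beside 3.97% of all genes higher. JAM2 had 10.6, 11.8 and 12.1 TPM in mycT and 15.1, 17.1 and 18 TPM in jazQ mycT (0.54 ± 0.065 (SE), adjusted p = 0.00287), JAM1 had 13.5, 16.4 and 15.6 TPM in mycT and 20.3, 21.4 and 21.1 TPM in jazQ mycT (0.48 ± 0.074 (SE), adjusted p = 0.00848), and JAM3 did not pass (0.033 ± 0.068 (SE), adjusted p = 0.809). The JAM1 and JAM2 calls held without any 1 library and without both replicate 1 libraries. AT4G00870, a further gene of that bHLH clade, had at most 6 counts and was not tested.

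Of 9 tested wound and coronatine markers 4 rose and none fell, beside 3.97% of all genes higher. The median log2 fold change was 0.34, and 3 were called without both replicate 1 libraries. ARGAH2, an arginase, had 61.1, 59.3 and 58.9 TPM in mycT and 84.5, 117 and 114 TPM in jazQ mycT (0.84 ± 0.083 (SE), adjusted p = 0.00111). CORI3, a cystine lyase, had 8.74, 13.8 and 9.68 TPM in mycT and 16.6, 22.1 and 20.6 TPM in jazQ mycT (0.86 ± 0.13 (SE), adjusted p = 0.00851). VSP2, a vegetative storage protein, was low in both genotypes, with 2, 3.03 and 2.87 TPM in mycT and 5.17, 5.49 and 5.55 TPM in jazQ mycT (1.08 ± 0.16 (SE), adjusted p = 0.0081). JR1, a jacalin lectin, rose by 0.34 ± 0.077 (SE), adjusted p = 0.0346, but not without mycT replicate 1 or 3 or jazQ mycT replicate 1, 2 or 3 (adjusted p = 0.0668 to 0.126). VSP1 (0.47 ± 0.15 (SE), adjusted p = 0.0944), CLH1 (0.26 ± 0.071 (SE), adjusted p = 0.0677) and TAT3 (0.050 ± 0.32 (SE), adjusted p = 0.948) did not pass. TPS04 and JMT stayed under 2 TPM in every library.

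Anthocyanins are red and purple pigments made from phenylalanine. Of 17 tested genes 4 rose and none fell, beside 3.97% of all genes higher. The median log2 fold change was 0.25, and 3 were called without both replicate 1 libraries. DFR, dihydroflavonol reductase, had 5.02, 7.16 and 5.92 TPM in mycT and 16.8, 21.1 and 17.4 TPM in jazQ mycT (1.63 ± 0.12 (SE), adjusted p = 0.000376). LDOX, the next enzyme, had 5.92, 9.11 and 6.49 TPM in mycT and 14.1, 18.8 and 13.6 TPM in jazQ mycT (1.11 ± 0.17 (SE), adjusted p = 0.00827). The libraries of both genes were separated. GSTF12, needed to move anthocyanin to the vacuole, rose by 0.91 ± 0.16 (SE), adjusted p = 0.0147, but not without jazQ mycT replicate 2 (adjusted p = 0.0655). The acyltransferase gene 5MAT rose by 1.15 ± 0.23 (SE), adjusted p = 0.0254, but not without mycT replicate 2 or jazQ mycT replicate 1, 2 or 3 (adjusted p = 0.0597 to 0.0978). CHS, chalcone synthase at the head of the route, had 348, 377 and 358 TPM in mycT and 267, 343 and 302 TPM in jazQ mycT (-0.24 ± 0.066 (SE), adjusted p = 0.0702), and TT5, F3H and TT7 had log2 fold changes of -0.085, -0.033 and -0.27. None of these passed, and neither did the regulators MYB75, MYB90, TT8, GL3, EGL3, GL1 and TTG1.

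Flowering-time genes gave 4 falls and 1 rise among 12 tested, with a median log2 fold change of -0.22, beside 3.53% of all genes lower. None of these calls held in all 6 fits that leave out 1 library, and 1 fall was called without both replicate 1 libraries. TEM1, a repressor of FT, had 157, 166 and 122 TPM in mycT and 82.1, 56.7 and 56.8 TPM in jazQ mycT (-1.15 ± 0.20 (SE), adjusted p = 0.0155), and lost its call without mycT replicate 2 or jazQ mycT replicate 2 or 3 (adjusted p = 0.0619 to 0.072). TOE1, another repressor, fell by 0.31 on the log2 scale (adjusted p = 0.0183), but not without mycT replicate 1 or 2 or jazQ mycT replicate 2 or 3 (adjusted p = 0.0532 to 0.0882). GI, a clock-associated activator, had a log2 fold change of -0.59 ± 0.12 (SE), adjusted p = 0.024, and lost its call without mycT replicate 1 or 2 or jazQ mycT replicate 2 or 3 (adjusted p = 0.0634 to 0.0865). FT, the mobile flowering signal, had 4.24, 3.06 and 3.95 TPM in mycT and 1.41, 1.32 and 2.33 TPM in jazQ mycT (-1.13 ± 0.26 (SE), adjusted p = 0.0405), and lost its call without mycT replicate 1, 2 or 3 or jazQ mycT replicate 1, 2 or 3 (adjusted p = 0.0567 to 0.134). SMZ rose by 0.32 ± 0.074 (SE), adjusted p = 0.0386, but not without mycT replicate 1 or 2 or jazQ mycT replicate 1, 2 or 3 (adjusted p = 0.0816 to 0.12). SOC1 (-0.021) and FLC (-0.26) did not pass.

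In the branch of jasmonate signalling shared with ethylene, 1 of 15 tested genes rose and 2 fell, beside 3.97% of all genes higher and 3.53% lower. The median log2 fold change was -0.20, and without both replicate 1 libraries none was higher and 5 were lower. PDF1.3, a plant defensin, had 35.6, 41.9 and 43.2 TPM in mycT and 58.6, 54.6 and 76.8 TPM in jazQ mycT (0.68 ± 0.12 (SE), adjusted p = 0.0167), and lost its call without mycT replicate 2 or jazQ mycT replicate 3 (adjusted p = 0.0577 to 0.0641). The defensin genes of this family are near copies and share reads, so the split between PDF1.3 and PDF1.2A, PDF1.2B and PDF1.2C, none of which passed, is uncertain. CHI-B, a basic chitinase, had 13.9, 14.7 and 12.9 TPM in mycT and 5.08, 8.37 and 9.21 TPM in jazQ mycT (-0.88 ± 0.16 (SE), adjusted p = 0.0152), and lost its call without mycT replicate 2 or jazQ mycT replicate 2 (adjusted p = 0.0551 to 0.0618). ORA47, an ERF-type factor, had 3.47, 6.24 and 4.26 TPM in mycT and 1.93, 0.97 and 1.4 TPM in jazQ mycT (-1.63 ± 0.32 (SE), adjusted p = 0.0221), and lost its call without mycT replicate 2 or jazQ mycT replicate 2 or 3 (adjusted p = 0.0786 to 0.0941). ORA59, the factor that integrates both hormones, did not pass, with 9.2, 8.06 and 4.78 TPM in mycT and 7.11, 6.23 and 5.93 TPM in jazQ mycT (-0.20 ± 0.24 (SE), adjusted p = 0.662). ERF5 and ERF6 spread widely in jazQ mycT, where replicate 1 held 60.4 and 142 TPM and the other libraries at most 16 and 51.9 TPM.

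Salicylate genes gave 2 falls and no rise among 12 tested, beside 3.53% of all genes lower. The median log2 fold change was -0.48, and there were 3 falls without both replicate 1 libraries. PR1, a salicylate marker, had 13.2, 23 and 33 TPM in mycT and 9.62, 8.02 and 8.18 TPM in jazQ mycT (-1.36 ± 0.30 (SE), adjusted p = 0.0332), and lost its call without mycT replicate 2 or jazQ mycT replicate 1, 2 or 3 (adjusted p = 0.0555 to 0.126). ALD1, which makes pipecolic acid, had 1.33, 1.1 and 1.39 TPM in mycT and 0.26, 0.62 and 0.37 TPM in jazQ mycT (-1.64 ± 0.31 (SE), adjusted p = 0.0204), and lost its call without mycT replicate 1 or jazQ mycT replicate 1 or 3 (adjusted p = 0.0626 to 0.0932). ICS1, the main salicylate synthase, did not pass (-0.26 ± 0.14 (SE), adjusted p = 0.301), nor did NPR1 (0.15 ± 0.14 (SE), adjusted p = 0.583), and WRKY70 was lower in every jazQ mycT library without passing (-1.06 ± 0.31 (SE), adjusted p = 0.0841).

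Photosystem, antenna and Rubisco transcripts, which are highly abundant in the seedling, had small negative log2 fold changes in all 31 tested genes, with a median of -0.23. Of these genes 6 fell, beside 3.53% of all genes lower. PSAF, a subunit of photosystem I, had 1885, 2137 and 2348 TPM in mycT and 1297, 1686 and 1497 TPM in jazQ mycT (-0.50 ± 0.090 (SE), adjusted p = 0.017), and lost its call without mycT replicate 2 or jazQ mycT replicate 3 (adjusted p = 0.0507 to 0.0833). LHCB2.1, an antenna protein, fell by 0.33 on the log2 scale (adjusted p = 0.0229), but not without mycT replicate 1 or 2 or jazQ mycT replicate 1 or 3 (adjusted p = 0.0501 to 0.106). PSBP1 (-0.38 ± 0.087 (SE), adjusted p = 0.0361), LHCA1 (-0.31 ± 0.068 (SE), adjusted p = 0.0317), LHCA2 (-0.36 ± 0.087 (SE), adjusted p = 0.0451) and PSAO (-0.36 ± 0.087 (SE), adjusted p = 0.0461) also fell. No call of this list held in all 6 fits that leave out 1 library: PSBP1 lost its call without mycT replicate 1, 2 or 3 or jazQ mycT replicate 1, 2 or 3 (adjusted p = 0.0502 to 0.104), PSAO without mycT replicate 1, 2 or 3 or jazQ mycT replicate 1, 2 or 3 (adjusted p = 0.053 to 0.171), LHCA1 without mycT replicate 2 or 3 or jazQ mycT replicate 1, 2 or 3 (adjusted p = 0.0526 to 0.139) and LHCA2 without mycT replicate 2 or 3 or jazQ mycT replicate 1, 2 or 3 (adjusted p = 0.0612 to 0.166). Without both replicate 1 libraries 3 genes fell, and in limma on log2(TPM + 1) none did, while DESeq2 called 19.

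Root and shoot markers also had negative medians. The median log2 fold change was -0.18 over the 16 root markers, 13 of them negative, and -0.19 over the 16 shoot markers, 12 of them negative. CASP1, of the root's Casparian strip, was the only marker called and fell by 0.37 on the log2 scale (adjusted p = 0.0271), but not without mycT replicate 1 or 2 or jazQ mycT replicate 1, 2 or 3 (adjusted p = 0.0553 to 0.108). FEZ, a root cap factor, had 1 to 15 counts and was not tested. The part of tissue makeup in the photosystem values was not tested.

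**Figure D3:**
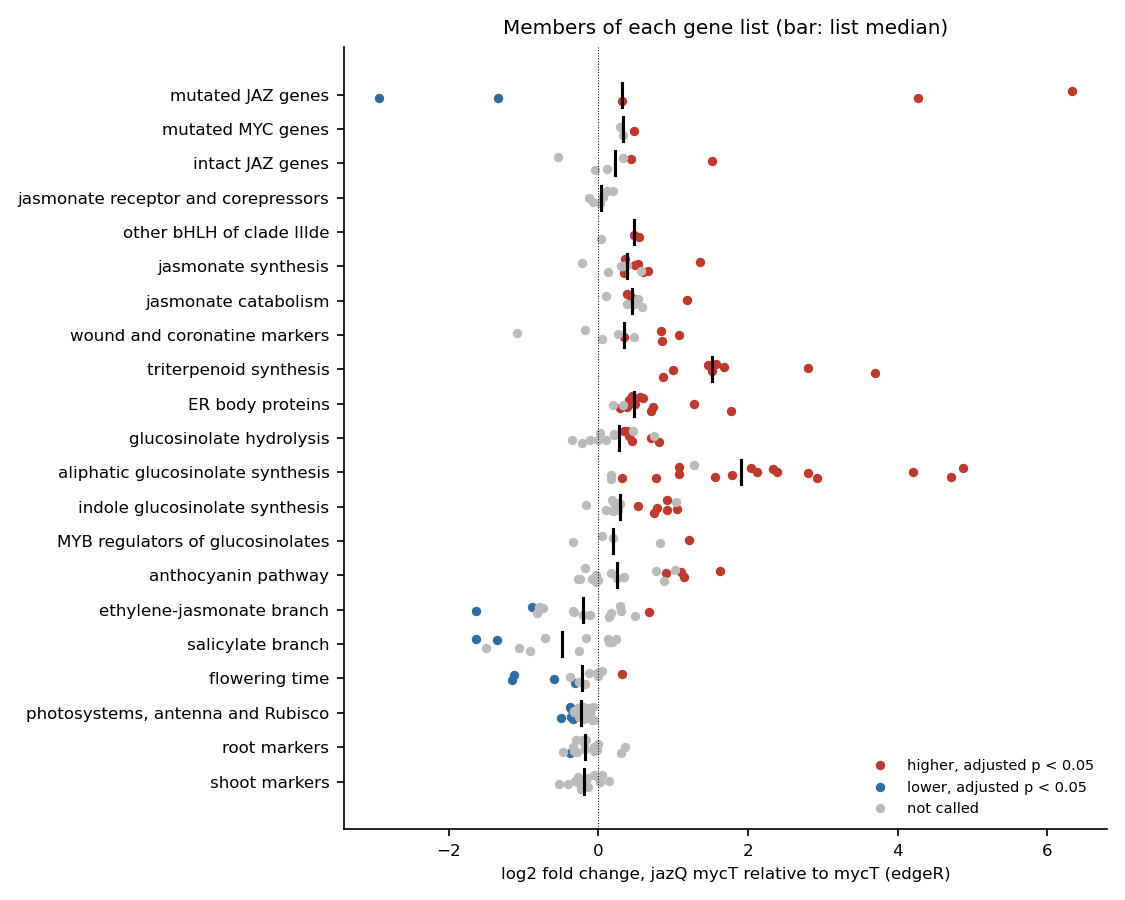
Log2 fold change of jazQ mycT over mycT for the tested members of each gene list; each point is 1 gene, red where it was higher and blue where it was lower at an adjusted p under 0.05 and grey otherwise, and the bar is the median. Aliphatic glucosinolate synthesis (median 1.91) and triterpenoid synthesis (1.52) lie farthest from 0, and every photosystem gene lies below 0.

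Several families of secreted and cell-wall proteins held more falls than rises. Class III peroxidases, secreted enzymes that build and loosen walls, had 12 of 54 tested genes lower and 2 higher, beside 3.53% of all genes lower, and 6 of the falls held in all 6 fits that leave out 1 library. AT3G01190 had 51.5, 68.5 and 65.4 TPM in mycT and 27.9, 31.2 and 25.8 TPM in jazQ mycT (-1.11 ± 0.11 (SE), adjusted p = 0.00138). AT5G64100 had 118, 105 and 123 TPM in mycT and 63.4, 65.2 and 75 TPM in jazQ mycT (-0.75 ± 0.086 (SE), adjusted p = 0.00243), and its neighbour AT5G64120 fell too (-0.53 ± 0.079 (SE), adjusted p = 0.00803). A peroxidase gene that went the other way was AT1G34510, with 3.31, 2.5 and 4.27 TPM in mycT and 9.64, 9.71 and 11.2 TPM in jazQ mycT (1.64 ± 0.19 (SE), adjusted p = 0.00228). In the fit that leaves out both replicate 1 libraries, 9 peroxidases were lower and 1 higher. These genes, and those of the next 3 families, were chosen after their values were seen.

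Expansins, which loosen walls during growth, had 5 of 22 tested genes lower and 1 higher, beside 3.53% of all genes lower and 3.97% higher. EXPA8 had 33.9, 42.1 and 30.2 TPM in mycT and 13.6, 14.2 and 13.1 TPM in jazQ mycT (-1.37 ± 0.12 (SE), adjusted p = 0.000685). EXPA1 had 203, 189.7 and 146 TPM in mycT and 91.3, 99.5 and 92.8 TPM in jazQ mycT (-0.91 ± 0.12 (SE), adjusted p = 0.00508). Both were lower in all 3 jazQ mycT libraries and kept their calls without any 1 library. The 2S albumin and lipid-transfer superfamily had 13 of 56 tested genes lower and 4 higher, beside the same shares of all genes. Its median log2 fold change was -0.37, but only 1 fall held in all 6 fits that leave out 1 library, against 3 rises. AIR1, an auxin-induced root protein, had 30.2, 61.1 and 65.6 TPM in mycT and 343, 388 and 298 TPM in jazQ mycT (2.76 ± 0.25 (SE), adjusted p = 0.000798). AT4G12545, close to AIR1 on chromosome 4, had 97.7, 159 and 151 TPM in mycT and 421, 562 and 439 TPM in jazQ mycT (1.83 ± 0.16 (SE), adjusted p = 0.000733). AT4G22610 had 5.86, 10.8 and 6.65 TPM in mycT and 32.9, 42.6 and 32.2 TPM in jazQ mycT (2.2 ± 0.20 (SE), adjusted p = 0.000851). In these 3 genes the lowest jazQ mycT library was more than 2 times the highest mycT library. Jacalin-related lectins had 7 of 26 tested genes higher and none lower, beside 3.97% of all genes higher. Of these, AT5G35940 had the values 10.9, 11.9 and 10.3 TPM in mycT and 29.4, 32.9 and 30.2 TPM in jazQ mycT (1.49 ± 0.078 (SE), adjusted p = 6.37e-05).

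Other genes among the largest rises had no place in the lists. AT1G52905, which the annotation describes as an unknown protein, had 0.38, 0.4 and 1.13 TPM in mycT and 14.9, 18.3 and 17.2 TPM in jazQ mycT (4.87 ± 0.29 (SE), adjusted p = 0.000112). AT4G22214, a defensin-like gene on chromosome 4, had 2.01, 1.85 and 1.1 TPM in mycT and 21, 16.4 and 18.7 TPM in jazQ mycT (3.45 ± 0.23 (SE), adjusted p = 0.000152). AT5G38100, a methyltransferase gene, had 1.67, 1.63 and 1.37 TPM in mycT and 7.32, 9.06 and 10.8 TPM in jazQ mycT (2.5 ± 0.15 (SE), adjusted p = 0.000122), and AT4G17470, an alpha/beta hydrolase gene, had 0.46, 1.28 and 1.37 TPM in mycT and 4.88, 7.47 and 5.44 TPM in jazQ mycT (2.58 ± 0.32 (SE), adjusted p = 0.00349). Libraries that do not overlap were a condition for naming these genes. In AT1G52905 the mean moved from 0.637 ± 0.43 to 16.8 ± 1.75 TPM (SD, n = 3).

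The largest falls were near losses of a transcript that was present in mycT. In the Col-0 and jazQ libraries, AT4G22510 and AT2G01422 had too few reads to be tested. AT4G22510 had 281, 35 and 194 counts in mycT and 0, 0 and 0 in jazQ mycT, which is at least 68.0-fold lower when each empty library is set to a floor of 3 counts, and its call was lost without mycT replicate 1 or jazQ mycT replicate 1, 2 or 3 (adjusted p = 0.0532 to 0.0872). AT2G01422 had 300, 311 and 142 counts against 1, 1 and 0, a ratio of 417 (95% counting interval 115 to 3453, counting error only). AT1G67328 had 178, 106 and 112 counts against 0, 0 and 4, a ratio of 110 (42.5 to 405). AT2G01422 and AT1G67328 kept their calls without any 1 library (adjusted p = 6.56e-06 and 0.00073). AT1G67328 and AT1G76878 (-2.25 ± 0.26 (SE), adjusted p = 0.0027) are annotated as other RNA, and the sources used here do not give the strandedness of the libraries, so reads of a partner on the other strand cannot be told apart.

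Among falls at higher levels, NEET, an iron-sulphur protein, had 46.9, 41.6 and 50.8 TPM in mycT and 16.4, 19.9 and 15.4 TPM in jazQ mycT (-1.42 ± 0.13 (SE), adjusted p = 0.000968). AMT1;3, an ammonium transporter, had 7.47, 8.8 and 8.84 TPM in mycT and 3.34, 3.59 and 2.65 TPM in jazQ mycT (-1.37 ± 0.15 (SE), adjusted p = 0.00175). QQS, a gene that affects starch content, had 8.88, 8.45 and 7.78 TPM in mycT and 2.69, 3.38 and 2.02 TPM in jazQ mycT (-1.63 ± 0.22 (SE), adjusted p = 0.00521). PCR1, PLANT CADMIUM RESISTANCE 1, fell as well (-1.54 ± 0.21 (SE), adjusted p = 0.00544). Libraries that do not overlap were a condition for naming these 4 genes. Their calls held without any 1 library. AT5G20790, annotated as an unknown protein, had -1.74 ± 0.27 (SE), adjusted p = 0.00916, and lost its call without jazQ mycT replicate 2 (adjusted p = 0.0551). HB52 had -1.48 ± 0.26 (SE), adjusted p = 0.0153, and lost its call without jazQ mycT replicate 2 or 3 (adjusted p = 0.070 to 0.0717). The putative chitinase gene AT2G43570 (named CHI in the annotation) had -1.46 ± 0.26 (SE), adjusted p = 0.0149, and lost its call without jazQ mycT replicate 2 or 3 (adjusted p = 0.0504 to 0.0698). PS2, a phosphate starvation gene, had -1.54 ± 0.30 (SE), adjusted p = 0.0224, and lost its call without mycT replicate 1 or 2 or jazQ mycT replicate 2 or 3 (adjusted p = 0.0553 to 0.0942). PNP-A had -1.56 ± 0.32 (SE), adjusted p = 0.0267, and PCC1 had -1.71 ± 0.43 (SE), adjusted p = 0.050. Their calls were lost without mycT replicate 1 or jazQ mycT replicate 1, 2 or 3 (adjusted p = 0.0578 to 0.108) for PNP-A and without mycT replicate 2 or jazQ mycT replicate 1, 2 or 3 (adjusted p = 0.0787 to 0.17) for PCC1.

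The genes that rose were not spread evenly over the genome. In the first 1.4 Mb of chromosome 2, a stretch chosen after the values were seen and therefore described without a test, 150 of 219 tested genes (68.5%) were higher, 1 was lower (AT2G01422) and 214 had a positive log2 fold change. The median log2 fold change there was 0.56, a fold of 1.48, with quartiles of 0.42 and 0.72. Outside it, 673 of 20498 tested genes (3.28%) were higher and the median was 3.16e-05. The stretch thus held 18.2% of all genes that rose, and 96 of the 291 that held in all 6 fits that leave out 1 library. No member of the gene lists lies in it.

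Genes of unrelated functions rose in the stretch, and 68 of the 219 did not pass. EXGT-A3, an endoxyloglucan transferase, had 186, 212 and 197 TPM in mycT and 309, 369 and 388 TPM in jazQ mycT (0.85 ± 0.053 (SE), adjusted p = 0.000144). CR88, a chloroplast chaperone, had 181, 180.5 and 154 TPM in mycT and 309.9, 331 and 356 TPM in jazQ mycT (0.97 ± 0.081 (SE), adjusted p = 0.000584). WHY3, a DNA-binding protein, had 21.8, 23.6 and 24.5 TPM in mycT and 38.6, 40.4 and 44.6 TPM in jazQ mycT (0.84 ± 0.068 (SE), adjusted p = 0.000507). Every jazQ mycT library was above every mycT library in these genes, which were chosen after their values were seen. RGA1, a DELLA repressor of gibberellin responses, rose by 0.48 ± 0.052 (SE), adjusted p = 0.00173. In windows of 25 tested genes along each chromosome, the 9 windows of this stretch had medians from 0.45 to 0.65 and 12 to 21 genes higher, and no other of the 819 windows had a median above 0.21 or more than 7 genes higher.

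The stretch stood out in each jazQ mycT library and in no other library of the series. The median log2 ratio of its genes to the mycT mean was 0.55, 0.54 and 0.51 in the jazQ mycT libraries, -0.0088 to 0.0036 in mycT, 0.0013 to 0.032 in Col-0 and 0.0017 to 0.047 in jazQ. Outside the stretch the same median lay between -0.0076 and 0.005 in all 12 libraries. None of the 8 mutated JAZ and MYC genes is on chromosome 2. The cause was not tested, and loss of the JAZ genes cannot be told apart from any other difference between the lines that lies there.

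**Figure D4:**
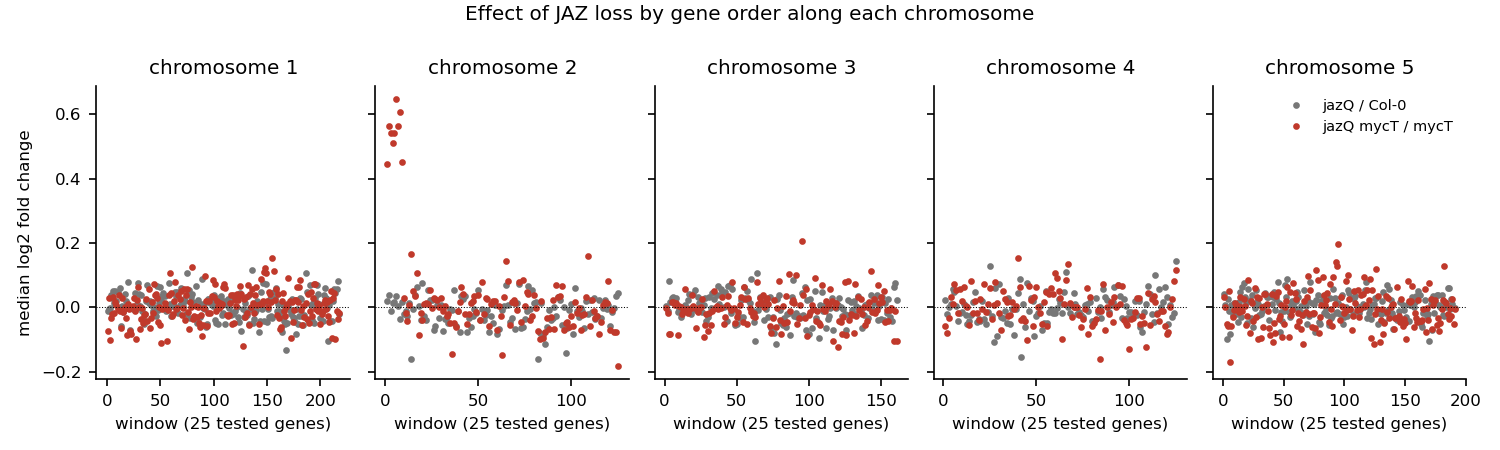
Median log2 fold change in windows of 25 tested genes, in window order along each of the 5 chromosomes, for jazQ mycT over mycT (red) and jazQ over Col-0 (grey). For jazQ mycT over mycT the first 9 windows of chromosome 2 lie between 0.45 and 0.65, and its other windows lie between -0.18 and 0.21.

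Adjacent genes that rose together were also found elsewhere. Runs of 3 or more adjacent protein-coding genes that all rose numbered 28, most of them in the stretch of chromosome 2, and runs that all fell numbered 4. A gene that was not tested ended a run. On chromosome 5 the marneral genes CYP705A12, MRO and MRN1 (17023502 to 17058245) and the thalianol genes ACT, THAD, THAH and THAS (19428888 to 19461706) formed such runs. Another was formed by AT5G23820, AT5G23830 and AT5G23840 (8031165 to 8037110), which encode MD-2-related lipid recognition proteins. AT5G23830 had 32.1, 35.3 and 35.4 TPM in mycT and 84.4, 93 and 84.8 TPM in jazQ mycT (1.37 ± 0.073 (SE), adjusted p = 6.88e-05). On chromosome 3 the ER body and hydrolysis genes NSP4, PBP1 and JAL31 rose side by side, as did the lectins JAL33, JAL34 and JR1. On chromosome 5 the peroxidases AT5G64100, AT5G64110 and AT5G64120 fell side by side. Coordinates are those of the TAIR10.1 annotation.

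Insertions can carry linked differences with them, so genes around the 5 mutated JAZ loci were counted. Within 200 kb of these loci 28 of 427 tested genes were called (6.56%, 95% Wilson interval 4.58 to 9.31%), beside 7.51% of all genes. The share was 7.36% within 100 kb and 5.56% within 500 kb. Single genes in these windows could still differ strongly. TDX (6123341 to 6126281), close to JAZ3 (6119707 to 6123044) on chromosome 3, was chosen after its values were seen. It rose by 1.49 ± 0.064 (SE), adjusted p = 2.10e-05, and by 2.51 for jazQ over Col-0 (edgeR, adjusted p = 1.17e-07). The cause was not tested.

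The same loss was compared between backgrounds with the 6 other libraries, jazQ and Col-0, which carry intact MYC genes and were grown, by the labels, in the same way. There 259 of 20502 tested genes (1.26%) were higher and 135 (0.658%) lower in jazQ. The comparisons share no library. Of the genes higher in each, 185 were common, which is 22.5% of those higher in the mycT background and 71.4% of those higher in the Col-0 background. Of the genes lower in each, 53 were common, 7.24% and 39.3%. Outside the first 1.4 Mb of chromosome 2, 184 of the 673 genes higher in the mycT background (27.3%) were also higher in Col-0, and within it 1 was.

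The difference itself was tested as an interaction, the log2 fold change in the mycT background minus that in the Col-0 background. Of 20888 genes tested, 98 (0.469%) had a larger and 23 (0.11%) a smaller value in the mycT background. Of the 98, 73 lie in the first 1.4 Mb of chromosome 2, where 33.3% of tested genes were called against 0.121% elsewhere, and with the genes of that stretch left out of the fit 13 were larger and 6 smaller. Without both replicate 1 libraries of mycT and jazQ mycT they numbered 44 and 3, and single libraries moved them too. The count of larger values was 61 without Col-0 replicate 1 and 56 and 58 without jazQ mycT replicate 2 or 3. The count of smaller values was 8 and 10 without Col-0 replicate 1 or 2, 13, 11 and 39 without jazQ replicate 1, 2 or 3, 9 and 15 without mycT replicate 1 or 2, and 10, 7 and 6 without jazQ mycT replicate 1, 2 or 3. Triterpenoid genes had no interaction call. MRN1, for example, rose by 3.69 in the mycT background and 3.77 in the Col-0 background (interaction -0.075, adjusted p = 0.984), and the median of the 9 genes was 1.52 and 1.84.

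Aliphatic glucosinolate synthesis was where the backgrounds differed most among the lists: 6 of 18 genes had a larger rise in the mycT background. The median log2 fold change was 1.91 there and 0.32 in the Col-0 background, where 1 gene, BCAT4, was called. These rises started from mycT means of 0.517 TPM for CYP79F1, 0.24 TPM for MAM3, 7.9 TPM for CYP83A1 and 8.08 TPM for MAM1. The study reported strong repression of glucosinolate synthesis genes in mycT compared with Col-0. A larger log2 fold change from a lowered start does not show a higher level reached. CYP79F1 rose by 4.87 against 0.94 (interaction 3.94 ± 0.48, SE, adjusted p = 0.00303). BCAT4 rose by 4.21 against 0.90 (interaction 3.31 ± 0.33, adjusted p = 0.000702), and CYP83A1 by 2.92 against 0.35 (interaction 2.57 ± 0.26, adjusted p = 0.000702). Genes of jasmonate synthesis, ER bodies and glucosinolate hydrolysis had no interaction call. VSP2 rose by 1.08 in the mycT background and 3.62 in the Col-0 background, and the difference did not pass (interaction -2.52, adjusted p = 0.27). The median of the photosystem list was -0.23 in the mycT background and 0.13 in the Col-0 background, with no interaction call.

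**Figure D5:**
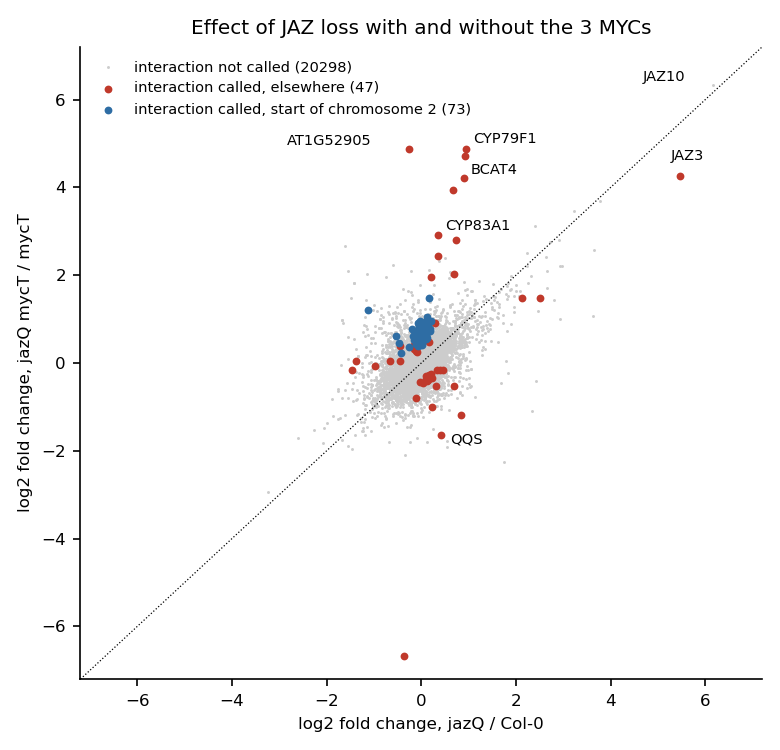
Log2 fold change for loss of the JAZ genes in the mycT background (y axis) against that in the Col-0 background (x axis), 1 point per gene. Blue points are the 73 genes at the start of chromosome 2 whose interaction was called, near 0 on the x axis, red points are those called elsewhere, grey points were not called, and CYP79F1, BCAT4 and CYP83A1 lie far above the dotted diagonal, and 2 genes lie outside the axes.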

How the data were processed

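Per the labels and the study's methods, the authors mapped single-end Illumina reads to TAIR10 gene models with RSEM (version 1.2.11) and deposited expected counts per gene, which were whole numbers here, and TPM per gene. Similar genes share reads by RSEM's estimate, and gene lengths enter the TPM values only. From the expected counts, genes were filtered with filterByExpr, scaled by TMM and tested with edgeR (version 4.0.16, quasi-likelihood, Benjamini-Hochberg) on the 3 mycT and 3 jazQ mycT libraries without a block. The interaction used all 12 libraries. The SE given with an edgeR value was back-calculated, as the size of the log2 fold change divided by the square root of the quasi-likelihood F statistic. Alternatives were DESeq2 (version 1.42.0), limma (version 3.58.1) on log2(TPM + 1) and log2(TPM + 0.1), other scalings and filters, a replicate block and leaving out libraries. Named genes were all JAZ and MYC members, the 15 largest rises and 15 largest falls among called genes whose libraries did not overlap and whose mean reached 5 TPM in either genotype, and in each gene list up to 6 members by adjusted p plus other called members. The first 1.4 Mb of chromosome 2, and the fits without it or without both replicate 1 libraries, were chosen after the data were seen, and families were taken from annotation descriptions. The members and lists were chosen with earlier results of these data known. Promoters and coordinates came from the RefSeq annotation of TAIR10.1, the intervals are 95% Wilson or exact counting intervals, and depth was 12336090 to 22936849 counts. A further gene list is not reported here.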

Additional observations from a re-analysis of the deposited data

Results flagged for a closer look

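Each gene here had a log2 fold change of jazQ mycT over mycT that differed from that of jazQ over Col-0, by the interaction term of edgeR's fit over all 12 libraries (Benjamini-Hochberg adjustment over 20888 genes). Values are the log2 fold change in the mycT background minus that in the Col-0 background. The 3 mycT and 3 jazQ mycT libraries did not overlap in any of these genes, which was a condition for those named by the size of their change. Only genes that the naming rule had picked are given, and that rule takes in every called member of a list. Over all genes, 98 larger and 23 smaller values were called. Of the 12 genes, 6 belong to aliphatic glucosinolate synthesis, a share that the naming rule shapes. CYP79F1, the aldoxime-forming P450, differed by 3.94 (adjusted p = 0.00303), and CYP83A1, the next P450, by 2.57 (adjusted p = 0.000702). The chain elongation genes MAM3, BCAT4, MAM1 and IMD1 differed by 3.79 (adjusted p = 0.00592), 3.31 (adjusted p = 0.000702), 2.06 (adjusted p = 0.00303) and 1.34 (adjusted p = 0.0421). GGP1, the glutamyl peptidase of both glucosinolate branches, differed by 0.64 (adjusted p = 0.0155).

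AT1G52905, an unknown protein, differed by 5.12 ± 0.46 (SE, adjusted p = 0.000353), with a log2 fold change of 4.87 in the mycT background and -0.25 in the Col-0 background. AK3, an aspartate kinase, differed by 3.29 (adjusted p = 0.00828). JAZ3, a mutated gene, differed by -1.2 (adjusted p = 0.0133), its rise being smaller in the mycT background, 4.27 against 5.47. QQS differed by -2.05 (adjusted p = 0.00919), falling in the mycT background (-1.63) with 0.42 in the Col-0 background. AT1G67328, annotated as other RNA, differed by -6.28 (adjusted p = 0.0135). Its 4 counts in jazQ mycT were all in replicate 3, and without that library the fitted difference was -9.71 (adjusted p = 0.0459).

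With the start of chromosome 2 left out of the fit, the interaction of IMD1 did not pass (adjusted p = 0.108) and those of the other 11 genes did. The interactions of MAM3 (adjusted p = 0.0742), AK3 (0.0824), IMD1 (0.211), GGP1 (0.0916), QQS (0.0589) and AT1G67328 (0.0929) did not pass when both replicate 1 libraries of mycT and jazQ mycT were left out. Leaving out single libraries, the IMD1 interaction did not pass without any one of them other than Col-0 replicate 3 (adjusted p = 0.0617 to 0.121), that of AT1G67328 did not pass without jazQ mycT replicate 1 or 2 (adjusted p = 0.0515 and 0.0579), and that of GGP1 did not pass without Col-0 replicate 1 (adjusted p = 0.0505). The interactions of the other 9 genes passed in every such fit.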

How the results depend on the processing

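Over the named genes and the alternatives run, 2205 comparisons kept their side of the threshold, 354 lost the call, 32 gained one and 7 untested values moved. No call turned into a call in the other direction, and signs of genes that were not called can differ between fits. The counts of genes were lower with limma: 376 higher and 377 lower on log2(TPM + 1), 365 and 374 on log2(TPM + 0.1), 194 and 143 without a filter. They were 296 and 133 at an adjusted p under 0.01 and 148 and 71 at a log2 change of at least 1. Leaving out 1 library gave 316 to 983 higher and 177 to 742 lower, and leaving out both replicate 1 libraries 511 higher. The replicate block gave 560 higher and 390 lower. Same-numbered libraries deviated with correlations of 0.12, 0.13 and -0.17, and differently numbered ones with -0.231 to 0.158. So few values cannot show whether the numbers pair the samples. Both replicate 1 libraries shared high shares of ribosomal RNA and organelle genes. For the interaction, leaving out 1 library gave 56 to 116 larger and 6 to 39 smaller, DESeq2 gave 65 smaller, the start of chromosome 2 left out 13 and 6, and both replicate 1 libraries left out 44 and 3. The share of CACGTG among genes that rose was 9.5% with only the 250 bases before the start. These causes were not tested, apart from the stricter thresholds and the smaller numbers of libraries or genes. The shallowest library, mycT replicate 3, held 12336090 counts, and only 20717 of 33602 genes had enough reads for a comparison.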

Other observations

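Gene families defined by fixed words in their annotation descriptions, which can miss members described otherwise, add groups that the report did not describe, with counts set beside 3.97% of all genes higher and 3.53% lower. Cytochromes P450, the oxidising enzymes of specialised metabolism, had 27 of 167 tested genes higher and 13 lower, and 17 of the rises held in all 6 fits that leave out 1 library. GDSL lipases had 4 of 48 higher and 5 lower, glutathione transferases 5 of 51 higher and 1 lower, 2-oxoglutarate oxygenases 6 of 75 higher and 1 lower, UDP-glycosyltransferases 7 of 112 higher and 4 lower, and terpene synthases 3 of 16 higher and 1 lower. Auxin-responsive SAUR genes had none of 56 higher and 5 lower, and genes described as xyloglucan endotransglucosylases none of 25 higher and 1 lower. EXGT-A3, described as an endoxyloglucan transferase and so not counted there, was higher.

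Families of general function and of transcription factors were counted in the same way. Ribosomal proteins had 5 of 343 higher and 5 lower, leucine-rich repeat receptor kinases 5 of 124 higher and 2 lower, and heat shock proteins none of 33 higher and 4 lower. Among transcription factors, WRKY genes had 4 of 46 higher and none lower, NAC genes 1 of 56 higher and 3 lower, AP2/ERF genes 1 of 60 higher and 2 lower, bHLH genes 5 of 92 higher and 5 lower, and MYB genes 3 of 85 higher and 3 lower. Without both replicate 1 libraries, 4 WRKY and 11 AP2/ERF genes were lower. Plant defensins had 1 of 5 higher and none lower, and none of the 8 MLP-like genes was called.

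Some of these rises lie in the first 1.4 Mb of chromosome 2, where most tested genes were higher. They are 2 of the 5 in leucine-rich repeat receptor kinases (AT2G01820 and AT2G02780) and 1 each in ribosomal proteins (AT2G01250), glutathione transferases (GSTZ1), GDSL lipases (AT2G03980), WRKY genes (WRKY3), NAC genes (LOV1) and MYB genes (MYB88). Outside that stretch the counts higher were 3, 4, 4, 3, 3, 0 and 2, in that order.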
